A study of Mus musculus with 6 samples.

Results

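The regions described here carried a called H3K27me3 peak in at least 2 of 3 Control samples of mouse mesangial cells and in none of 3 samples treated with TGF-β1. They were chosen by the peak calls themselves: all peaks of the 6 samples that shared at least 1 bp were merged, which gave 6924 regions, and 632 of them met this rule. The regions used for comparison were the other 820 regions called in at least 2 Control samples, each of which was also called in at least 1 TGF-β1 sample. So 632 of the 1452 regions called in at least 2 Control samples, or 43.5%, had no TGF-β1 call, a share that the rule itself fixes.

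H3K27me3 is the trimethylated form of lysine 27 of histone H3. It is written by the Polycomb repressive complex with EZH2 as its enzyme, tends to lie over CpG-rich starts of developmental genes, and is a mark of genes that are kept silent. Mesangial cells are the contractile support cells of the kidney glomerulus, and TGF-β1 is a cytokine that drives their matrix production.

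The study used primary cells grown at passages 3 to 6 with 25.5 mM glucose and 20% foetal bovine serum, and these conditions were shared by both groups. The 3 Control samples carry the treatment label Control, and the 3 TGF-β1 samples received 10 ng/ml for 72 h. The study calls the samples biological replicates, but the sources used here do not say whether they came from separate animals or cultures, so the spread between them may be partly technical. After duplicates were removed, between 19721434 and 22307716 tags remained per library. The peak lists were of unequal length, with 2005 to 2699 peaks in the Control samples and 878 to 1603 in the TGF-β1 samples. A list says nothing on the signal where no peak was called, so a region without a TGF-β1 call is not shown to be free of the mark. The extraction protocol in the labels and the names in the file headers describe methylated genomic DNA rather than chromatin, while the antibody label and the titles give H3K27me3. The labels were followed, and which of these holds was not tested.

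The sequence of the leading regions is shown first, since CpG content is compared further on. Each is a window of 300 bases on the plus strand of mm9, the one with the most CpG outside annotated untranslated exons, and capitals mark each CpG. The first 4 come from the longest regions within 2 kb of a transcription start site that every Control sample called and no TGF-β1 sample did. The last 2, at Comp and Gm996, come from the longest promoter regions called in all 6 samples that hold no repeated sequence, a condition chosen after their values were seen.
Pou3f1, chr4:124335364-124335663: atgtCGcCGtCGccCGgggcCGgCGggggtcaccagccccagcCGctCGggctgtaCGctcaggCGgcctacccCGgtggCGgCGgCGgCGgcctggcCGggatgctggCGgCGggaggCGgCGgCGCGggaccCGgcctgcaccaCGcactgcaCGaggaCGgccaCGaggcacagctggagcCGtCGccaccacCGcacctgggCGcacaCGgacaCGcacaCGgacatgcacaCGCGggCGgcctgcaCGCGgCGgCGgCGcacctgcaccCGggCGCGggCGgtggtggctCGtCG
Mtus2, chr5:148768585-148768884: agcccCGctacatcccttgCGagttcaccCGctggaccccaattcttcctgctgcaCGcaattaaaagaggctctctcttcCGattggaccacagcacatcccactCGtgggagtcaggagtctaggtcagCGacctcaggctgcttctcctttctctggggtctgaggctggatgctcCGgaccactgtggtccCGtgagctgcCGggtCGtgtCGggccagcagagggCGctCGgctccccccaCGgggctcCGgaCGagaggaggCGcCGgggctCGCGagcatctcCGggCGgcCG
Stac2, chr11:97913809-97914108: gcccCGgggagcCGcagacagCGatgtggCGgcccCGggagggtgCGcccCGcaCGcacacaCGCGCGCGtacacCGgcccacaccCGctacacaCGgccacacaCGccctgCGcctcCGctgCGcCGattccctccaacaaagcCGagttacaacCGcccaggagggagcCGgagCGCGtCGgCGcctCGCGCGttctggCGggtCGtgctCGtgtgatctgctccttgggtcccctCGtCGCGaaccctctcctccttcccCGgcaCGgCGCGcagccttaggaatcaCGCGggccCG
Ptpru, chr4:131392969-131393268: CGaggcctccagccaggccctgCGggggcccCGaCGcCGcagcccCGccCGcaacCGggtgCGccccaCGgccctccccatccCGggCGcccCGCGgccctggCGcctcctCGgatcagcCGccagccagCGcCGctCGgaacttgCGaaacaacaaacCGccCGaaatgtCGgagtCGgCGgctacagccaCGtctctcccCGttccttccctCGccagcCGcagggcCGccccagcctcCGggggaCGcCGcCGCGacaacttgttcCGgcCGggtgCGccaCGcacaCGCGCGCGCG
Comp, chr8:72898621-72898920: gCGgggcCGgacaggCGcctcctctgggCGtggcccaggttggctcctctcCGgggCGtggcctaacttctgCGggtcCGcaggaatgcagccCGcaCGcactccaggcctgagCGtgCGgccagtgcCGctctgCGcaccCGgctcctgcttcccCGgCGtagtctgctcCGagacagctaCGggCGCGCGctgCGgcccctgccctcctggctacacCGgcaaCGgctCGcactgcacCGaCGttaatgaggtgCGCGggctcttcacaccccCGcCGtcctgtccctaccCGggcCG
Gm996, chr2:25433160-25433459: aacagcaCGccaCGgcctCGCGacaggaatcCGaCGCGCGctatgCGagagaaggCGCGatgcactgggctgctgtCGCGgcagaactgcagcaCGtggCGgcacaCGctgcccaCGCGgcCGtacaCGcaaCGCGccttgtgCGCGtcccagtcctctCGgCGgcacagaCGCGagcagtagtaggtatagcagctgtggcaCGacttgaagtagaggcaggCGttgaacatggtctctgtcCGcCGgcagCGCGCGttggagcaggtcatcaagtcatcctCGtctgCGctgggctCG
The Pou3f1 window lay in coding sequence, 468 bp from the transcription start site (TSS), and held 48 CpG. The Mtus2 window lay just outside the gene, 12 bp from the TSS, and held 24. The windows of Stac2 and Ptpru were intronic and held 43 and 45. The windows of the regions called in all 6 samples, both in coding sequence, held 34 and 38, fewer than those of Pou3f1, Stac2 and Ptpru and more than that of Mtus2. In the middle 300 bases of each region the median number of CpG was 14 for the 630 regions on placed chromosomes and 6 for 755 comparison regions. It was 12 in windows of the same length around the TSS of 22216 protein-coding genes.

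Most of the regions lay at genes. A TSS of a protein-coding gene was within 2 kb of 356 of the 630 placed regions, or 56.5%, and 171 of these contained the TSS. Of the others, 44 overlapped an exon, 57 lay in an intron and 173 were intergenic. At the TSS the regions lay mostly on the downstream side, with the midpoint after the start in 253 of 356, or 71.1%, and a median offset of 291.5 bp into the gene. The comparison regions at a TSS had nearly the same placement, with 221 of 314, or 70.4%, downstream. In all, 375 protein-coding genes of 22225, or 1.69%, had one of the 632 regions at the TSS, and 335, or 1.51%, had a comparison region there. At the TSS, 6 genes had both kinds, and 25 of the 375 had some TGF-β1 peak within 2 kb of a TSS. Among all 22225 protein-coding genes, 623 had such a peak. These overlaps were not tested. Within the whole gene and 2 kb on either side, 69 of the 375 had a TGF-β1 peak. The matching count over all genes is not given here, so this number cannot be read as high or low.

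The 10 genes whose TSS regions were called in all 3 Control samples over the greatest mean length included the transcription factors Pou3f1, Tlx2 and Mesp1. The longest lay at Pou3f1, a POU homeobox factor of neural and Schwann cell development, at chr4:124335215-124338102. Its peaks covered 1818, 2261 and 2516 bp in Control 1, 2 and 3, a mean of 2198 ± 353 bp (SD, n = 3), and began 319 bp after the TSS. All 3 Control samples were thus long at Pou3f1, and the nearest TGF-β1 peak was 200343 bp away. At Tlx2, a homeobox gene of enteric neurons, the peaks at chr6:83019816-83021504 covered 1369, 403 and 1672 bp and spanned the TSS. Control 2 was the short sample there. Its fold enrichment over the local background was also the lowest, at 1.84 against 3.21 and 3.59. Mesp1, a bHLH factor of early heart mesoderm, carried 896, 1752 and 912 bp at chr7:86936610-86938361. A TGF-β1 peak lay only 144 bp from the Mesp1 region, so at this gene the rule rests on a short gap.

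The other 7 genes were of mixed function, several of them known from neurons. Nptx2, a neuronal pentraxin that gathers glutamate receptors, had 1196, 1120 and 1427 bp over its TSS at chr5:145306256-145307828. Celsr3, a seven-pass cadherin of axon tract formation, had 1566, 1611 and 572 bp upstream of the TSS at chr9:108726651-108728441. The Celsr3 peaks had a pileup (mean number of extended tags) of 98.2, 138 and 122 and a fold enrichment of only 1.28, 1.60 and 1.04. Such pileups were usual on chromosome 9, which is taken up again at the end. Kcnk3, a two-pore potassium channel of the TASK type, had the most even lengths of the 10, with 1118, 1195 and 1093 bp at chr5:30890993-30892369 (SD 53.2 bp). Ptpru, a receptor tyrosine phosphatase, had 1554, 1061 and 1339 bp in an intron, from 153 bp after the TSS, at chr4:131391387-131393993. Mtus2, which encodes a microtubule-associated protein, had 1268, 1900 and 1241 bp at chr5:148767326-148769404, across the TSS. Stac2, a regulator of calcium channels, was the most uneven, with 545, 1970 and 1696 bp at chr11:97912766-97914735 (SD 756 bp). Lemd1, a LEM domain gene expressed in testis, had 1315, 1483 and 1048 bp at chr1:134086762-134088977. These lengths chose the genes and are given as a description. The plot of lengths shows that the Control samples differ in order from gene to gene.

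**Figure D1:**
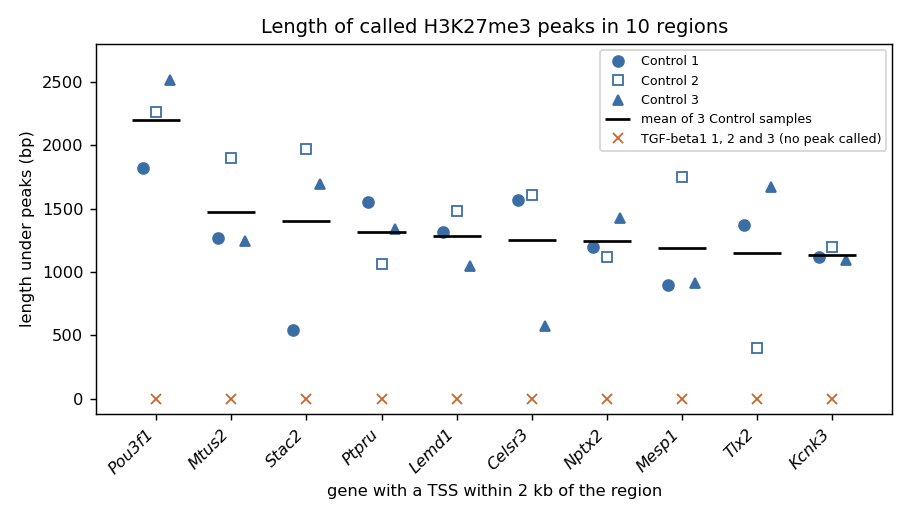
Length in bp under called H3K27me3 peaks (vertical axis) in the 10 regions at a TSS called over the greatest mean length in all 3 Control samples, with 1 point per Control sample, a bar for their mean and a cross at 0 for the TGF-β1 samples, which called no peak there. The lengths run from 403 bp in Control 2 at Tlx2 to 2516 bp in Control 3 at Pou3f1.

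Of the 632 regions, 476 were called in exactly 2 Control samples and 156 in all 3. Of the 476, Control 1 and 2 shared 235, Control 2 and 3 shared 137 and Control 1 and 3 shared 104. Control 3 had the shortest list of the 3, with 2005 peaks. The mean length under peaks had a median of 343 bp in the regions called in 2 samples and 639 bp in those called in 3, where a sample with no call counts as 0. A TSS was within 2 kb of 52.1% of the former and 69.9% of the latter, and the median CpG ratio, the number of CpG over the number that the base composition gives, was 0.52 and 0.65. Few regions were crowded: 12 of 630 had another such region within 10 kb and 88 within 100 kb.

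The 5 longest regions away from promoters are given next, out of 274 placed ones. The longest of those more than 2 kb from a TSS overlapped coding exons of Ncan, a chondroitin sulphate proteoglycan of brain matrix, with 940, 2793 and 306 bp in Control 1, 2 and 3 at chr8:72635250-72638042. One at chr14:49327885-49329699 was intergenic, 40.6 kb from the TSS of Otx2, a homeobox factor of forebrain and eye, with 1223, 1395 and 1158 bp. The Otx2 region was even between samples and poorer in GC, at 41.9%. Another, with 1097, 738 and 1293 bp at chr1:91864780-91866417, overlapped an exon of Asb18 and lay 34.9 kb from the TSS of the homeobox gene Gbx2. The region at chr10:126763393-126765057 overlapped exons of Arhgap9 and came within 2 kb of Gli1, an effector of Hedgehog signalling, with 580, 1649 and 602 bp. The last of these, with 575, 862 and 1434 bp in Ppp4r2 at chr6:100816349-100817889, consisted largely of repeated sequence (77.9% of its 31-base words occur elsewhere in the genome), so reads there may belong to other copies.

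Some genes held several regions. Shank1, a scaffold protein of the postsynaptic density, held 3: one over the TSS at chr7:51565783-51567039, called in all 3 Control samples, and 2 over exons further in, at chr7:51591486-51592764 and chr7:51607144-51607556. Grin2c, an NMDA receptor subunit, also held 3, one at the TSS at chr11:115126838-115128382 and 2 over exons at chr11:115110743-115111427 and chr11:115112362-115113135. Each of the 3 in Grin2c was called in 2 Control samples. A further 16 genes held 2 each, among them Shank3, Kcnk3, Mtus2, Col13a1, Dll3, Esrrg, Lmx1a and Nr5a1. Gm20388 held 7, but it is a gene model of several megabases that spans other genes, and 3 of its regions lay at the TSS of Crispld2, Jph3 and Dbndd1.

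The comparison of base composition asked whether these regions differ in sequence from the marked regions that TGF-β1 samples also call. It was made within each Control sample, between its own peaks in both kinds of region, so that the depth and list length of that sample are shared. The TGF-β1 lists, with their own depth and length, still decided which kind a region was. Median GC content was 59.2, 60.5 and 59.4% in the peaks of Control 1, 2 and 3 in the regions without a TGF-β1 call, and 56.1, 56.1 and 55.6% in their comparison peaks. The difference was 3.75 ± 0.67 percentage points (SD, n = 3). The median CpG ratio was 0.540, 0.571 and 0.549 against 0.407, 0.421 and 0.386, a difference of 0.148 ± 0.015. Peaks within 2 kb of a TSS made up 58.8, 57.7 and 57.7% against 40.6, 42.2 and 38.7%, a difference of 17.6 ± 1.9 percentage points. In all 3 measures the Control-only peaks were higher in 3 of 3 samples and the values did not overlap. The exact sign-flip test gave p = 0.25 (two-sided) for each, the smallest value that 3 samples allow, so none can pass 0.05. The 3 samples share most of their regions and are not independent.

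**Figure D2:**
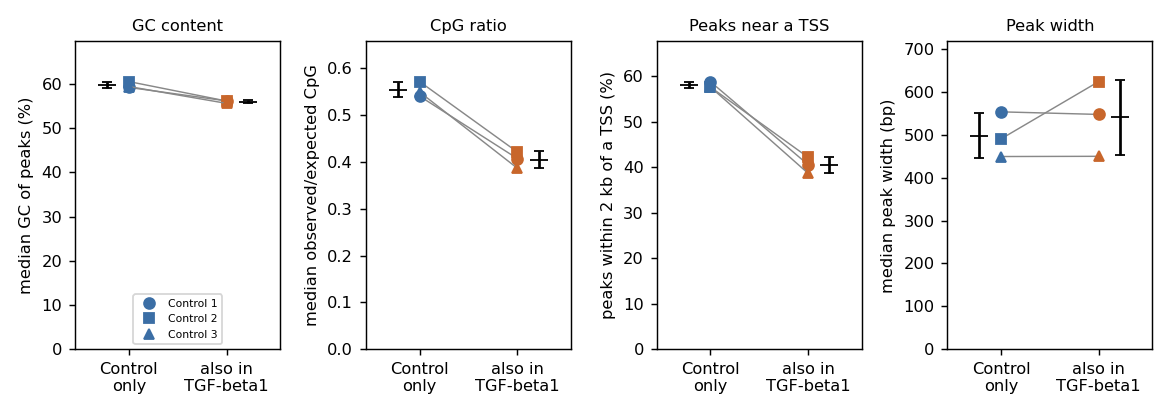
Median GC content (%), median CpG ratio, share of peaks within 2 kb of a TSS (%) and median peak width (bp) for the peaks of each Control sample in regions called in Control samples only (blue) and in regions also called in TGF-β1 samples (orange), with lines joining the values of 1 sample and black bars for mean ± SD (n = 3). The first 3 measures fall from left to right in every sample, and width does not.

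Peak width and height within a sample were similar for both kinds of region. Median peak width was 553, 490 and 449 bp in the Control-only regions and 547, 624 and 450 bp in the comparison regions, so only Control 2 differed much. The merged regions were narrower, with a median of 798 bp against 997 bp, but merging over more lists widens a region. Among peaks with a −log10 q of at least 5 the Control-only peaks were also narrower, with a mean log2 ratio of −0.407 ± 0.127 (SD, n = 3). Median fold enrichment was 1.74, 1.70 and 1.90 against 1.76, 1.74 and 1.86. The median pileup was 7.94, 8.48 and 7.12 against 7.67, 8.20 and 7.63. The median −log10 q was 0.77, 0.81 and 0.79 against 0.77, 0.84 and 0.83. Since calling depends on these measures they carry no test.

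The size of the difference in sequence varied with position and with repeated sequence. At a TSS the median CpG ratio was 0.626, 0.668 and 0.642 in the Control-only peaks and 0.620, 0.638 and 0.627 in the comparison peaks, close to each other in each sample. Further than 2 kb from a TSS it was 0.326, 0.327 and 0.300 against 0.169, 0.178 and 0.186. Regions in which over 50% of the 31-base words occur more than once in the genome made up 32 of 630 placed Control-only regions (5.08%) and 191 of 758 placed comparison regions (25.2%). Without them, an alternative chosen after seeing the data, the difference in CpG ratio shrank to 0.052, in GC content to 2.93 percentage points and in the share at a TSS to 8.79 percentage points, each still higher in the Control-only peaks of all 3 samples. Another 2 of the 632 regions and 62 of the 820 comparison regions lay on sequences with no place in the assembly and entered none of these measures.

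The comparison regions were themselves mixed, and their values changed with the number of TGF-β1 samples that called them. Of the regions called in all 3 Control samples, 69.9% lay at a TSS when no TGF-β1 sample called them, 66.2% when 1 did, 43.3% when 2 did and 20.1% when all 3 did. Their median CpG ratio was 0.650, 0.593, 0.503 and 0.224 in the same order, and the share with over 50% repeated words was 4.49, 7.79, 21.6 and 47.7%. Regions called in 2 Control samples fell in the same order, from 52.1% at a TSS with no TGF-β1 call to 47.3% with 1 and 9.52% with 3. Their CpG ratio and repeats differed more between no call and 1 call, at 0.522 against 0.402 and 5.27 against 16.1%. With the repeated regions left out, the shares at a TSS for all regions called in at least 2 Control samples were 58.7, 63.1, 48.4 and 28.9%. In these pooled shares the step between no call and 1 call ran the other way. Split by Control calls it was small, from 71.8 to 71.1% with 3 Control calls and from 54.3 to 55.8% with 2. The lower share of regions called in all TGF-β1 samples remained, at 30.8 and 10.0%. Of the 199 placed regions called in all 6 samples, 95 consisted mostly of repeated words and 40 lay at a TSS.

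**Figure D3:**
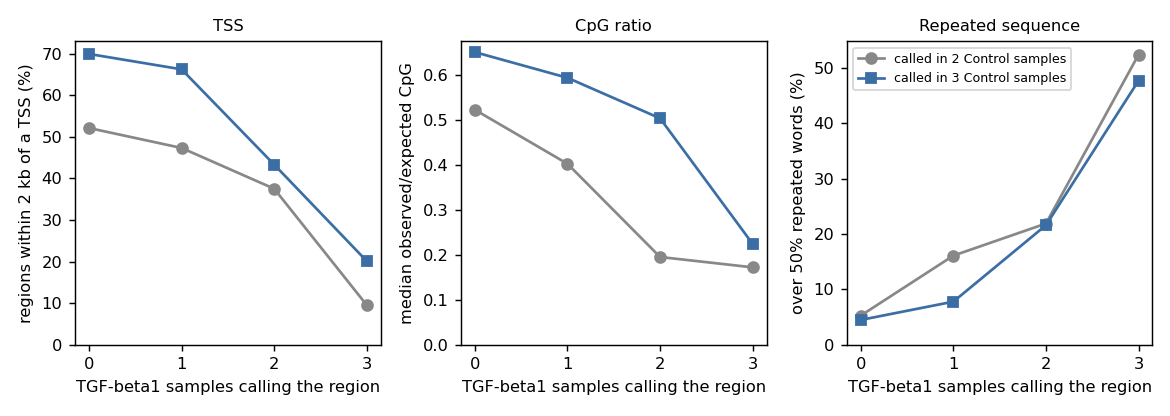
Share of regions within 2 kb of a TSS (%), median CpG ratio and share of regions with over 50% repeated words (%) against the number of TGF-β1 samples that call the region, for regions called in 2 (grey) or 3 (blue) Control samples. Values at 0 TGF-β1 samples are the regions described here, and from 0 to 1 the share at a TSS falls from 69.9 to 66.2% (blue) and from 52.1 to 47.3% (grey).

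At the edge of the rule, 476 regions called in 2 Control samples had no TGF-β1 call and 193 had 1. Their median length per calling Control sample was 514 and 462 bp, and their median fold enrichment was 1.77 and 1.81. Another 3370 regions were called in 1 Control sample alone, with a median length of 378 bp and a fold enrichment of 1.79. Of the 632 regions, 8 had a TGF-β1 peak within 200 bp, 29 within 1 kb and 268 within 100 kb. The closest lay at Zfp711, a zinc finger gene on the X chromosome, with a TGF-β1 peak 13 bp from the region at chrX:109714070-109714665 (297 and 322 bp in Control 1 and 2, no call in Control 3). The next lay in an intron of Cngb1, a channel subunit of rod photoreceptors, 71 bp from a TGF-β1 peak.

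Whether the pattern returns in samples that did not choose the regions was examined by leaving out 1 Control and 1 TGF-β1 sample in turn. Regions were then chosen as called in both other Control samples and neither other TGF-β1 sample, which gave 303 to 521 regions over the 9 combinations. The left-out Control sample called 42.1 to 65.2% of them and the left-out TGF-β1 sample 10.1 to 30.5%. The difference was 21.9 to 46.2 percentage points, with a mean of 36.1, and it was positive in all 9. Control 3 gave the lowest Control shares, 42.1 to 46.8%, and TGF-β1 1 the highest TGF-β1 shares, 25 to 30.5%. The other regions called in both Control samples were called by the left-out Control sample in 82.1 to 89.6% and by the left-out TGF-β1 sample in 51.7 to 76.2%. For these the difference was 11.6 to 34.4 percentage points, also in favour of Control in all 9. The 9 combinations share samples, so no test was made. The TGF-β1 lists were also shorter, with 878 to 1603 peaks against 2005 to 2699 in Control. The part of list length in the difference was not tested.

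**Figure D4:**
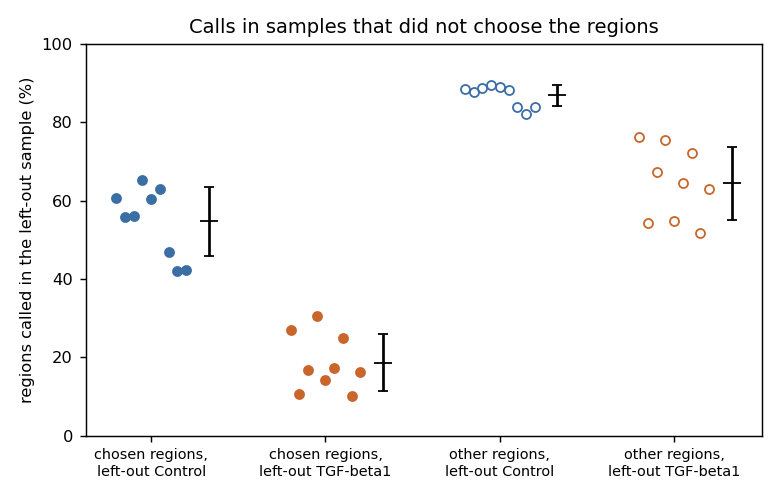
Share of regions (%) called in a Control (blue) or TGF-β1 (orange) sample that took no part in choosing them, for regions chosen as called in 2 Control and neither of 2 TGF-β1 samples (filled) and for other regions called in the same 2 Control samples (open), with 1 point per combination and black bars for mean ± SD of 9 combinations. For the chosen regions every Control value, at least 42.1%, is above every TGF-β1 value, at most 30.5%.

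The number of regions depended on which peaks entered the lists. The reverse pattern, a call in at least 2 TGF-β1 samples without any in Control, was met by 71 of 587 regions, or 12.1%. With a −log10 q of at least 1, 46.0% were Control-only and 17.5% the reverse, and with at least 5, 52.9 and 22.6%. The Control lists were still longer there, with 733 to 950 peaks against 344 to 473 for at least 1. With each list cut to its 878 strongest peaks, the length of the shortest, 122 of 348 regions (35.1%) were Control-only and 147 of 375 (39.2%) TGF-β1-only. At this cut alone the excess of Control-only regions was not present, and the part of list length was not tested. Those 122 overlapped 107 of the 632 regions and 2 of the 10 named above. In lists of that length the left-out Control sample still called 34.8 to 47.0% of the chosen regions and the left-out TGF-β1 sample 14.5 to 25%. For regions chosen the reverse way it was 36.2 to 59.7% in the left-out TGF-β1 sample and 11 to 27.8% in the left-out Control sample. In both directions the share was higher in the left-out sample of the group that chose the regions. The cut kept the whole list of TGF-β1 2, with 878 peaks, and only the strongest part of each other list. The cause was not tested.

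The lists of gene families show which functions had a region at the TSS. They are read against the 1.69% of all protein-coding genes with a Control-only region at the TSS and the 1.51% with a comparison region, without a test. Of 194 ion channel and neurotransmitter receptor genes, 26 (13.4%) had a Control-only region, called in all 3 Control samples at 9 of them, and 10 (5.15%) had a comparison region. Besides Kcnk3, the longest lay at Cacna1h, Cacna1b and Kcnk9. Cacna1h, a T-type calcium channel, had 1139, 862 and 714 bp across the TSS at chr17:25570032-25571229, in a stretch of raised pileup (25.1 to 58.2). Cacna1b, the N-type calcium channel of nerve terminals, had 1284, 669 and 658 bp at chr2:24618064-24619413. Kcnk9, a potassium channel related to Kcnk3, had 645 and 1539 bp in Control 1 and 2 and no call in Control 3. By family, chosen after the values were seen, 6 of 10 Cacna1 genes (calcium channel pores), 6 of 14 Kcnk genes and 3 of 7 Grin genes (NMDA receptor subunits) had such a region. Cacna1a and Kcnc1 had both kinds.

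Of 139 genes of Wnt, BMP, FGF, Hedgehog, Notch and TGF-β signalling, 12 (8.63%) had a Control-only region and 5 (3.60%) a comparison region. The ligands among the 12 were Wnt1, Fgf3, Dll1, Dll3 and the Wnt agonist Rspo1. Fgf11, an intracellular member of the FGF family that is no secreted ligand, had the longest, with 1062, 1169 and 884 bp across its TSS at chr11:69614848-69616086. Fgf12, of the same subfamily, had 913, 343 and 1204 bp at chr16:28445542-28447669. Rspo1 had 603 and 924 bp in Control 1 and 2 only. The receptors were Fgfr3, the Hedgehog receptor Ptch1 and Acvrl1, a type I receptor of the TGF-β family. Fgfr3 had 950, 619 and 651 bp at chr5:34065199-34066478. Sfrp1 and Sfrp2, secreted antagonists of Wnt, completed the list.

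Transcription factors were counted in both developmental lists. Of 164 homeobox genes, 11 (6.71%) had a Control-only region and 5 (3.05%) a comparison region. Besides Pou3f1 and Tlx2, Barhl1, a factor of cerebellar and inner ear neurons, had 312, 1126 and 161 bp at chr2:28772777-28773902. Others among the 11 were Dlx3, Lmx1a, Msx3, Nkx1-1, Nkx2-4, Nkx2-6 and Prrxl1. None of the 39 clustered Hox genes had a Control-only region at the TSS and 1, Hoxd1, had a comparison region. Of 161 Sox, Fox, T-box, GATA, bHLH and zinc finger factors, 12 (7.45%) had a Control-only region and 10 (6.21%) a comparison region, so these shares were close. After Mesp1 the longest were at Olig3, a bHLH factor of the dorsal neural tube (1220, 1207 and 647 bp), Tal1, which directs blood formation (533, 1648 and 189 bp), and Tbr1, a T-box factor of cortical neurons (1054, 918 and 270 bp). Tcf21, a bHLH factor of kidney mesenchyme and podocytes, was also among the 12.

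The matrix, axon guidance and keratin lists had shares of 4.27 to 5.07% for the Control-only regions. Of 138 extracellular matrix and remodelling genes, 7 (5.07%) had a Control-only region and 7 had a comparison region. Col13a1, a transmembrane collagen, had 217, 693 and 883 bp at its TSS. Fbn2, a fibrillin of elastic microfibrils, had 824 and 906 bp in Control 1 and 2 and no call in Control 3. Tnxb, tenascin X of connective tissue, had 418, 376 and 679 bp, and Col25a1, a collagen of neurons, had 317, 281 and 598 bp. Col23a1, Mmp17 and Mmp25 were the rest. Of 117 axon guidance and neural adhesion genes, 5 (4.27%) had each kind, and the Control-only ones were Celsr3, the semaphorin receptor Plxna4 (331, 1636 and 974 bp), Efna3, Dcc and Ntng1. Efna3, an ephrin ligand, had 176, 466 and 779 bp, and Dcc, the netrin receptor, had 359, 365 and 399 bp. Of 116 keratin and epithelial junction genes, 5 (4.31%) had a Control-only and 7 (6.03%) a comparison region. The first included the hair keratin Krt83 (1276, 417 and 362 bp), Dsp, Epcam and the connexin Gjd2. Dsp, the desmosomal plaque protein desmoplakin, had 773 and 971 bp in Control 2 and 3, and Epcam, an epithelial adhesion molecule, had 1046 and 443 bp in Control 1 and 2.

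**Figure D5:**
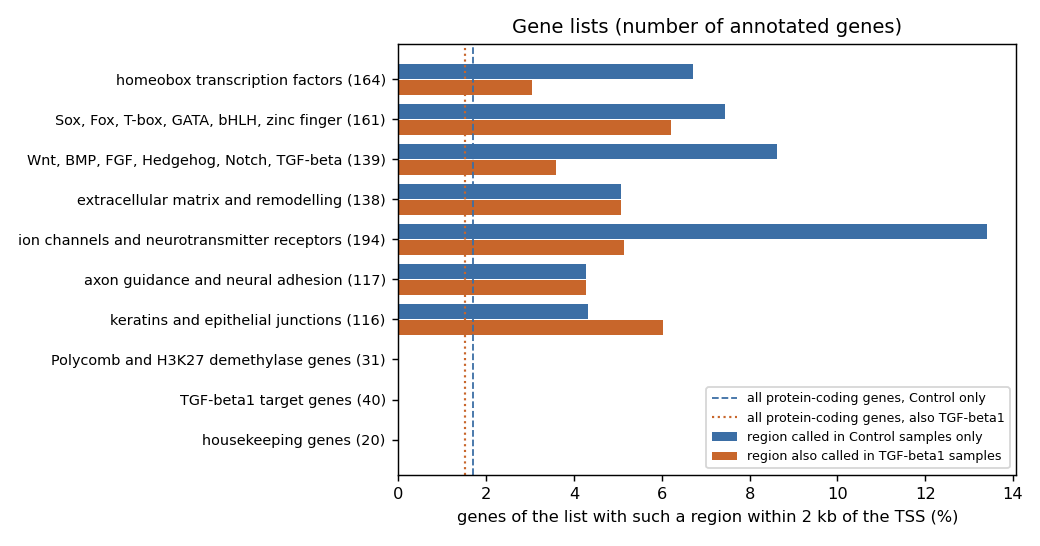
Share of the genes of each list (%) with a region within 2 kb of the TSS that was called in Control samples only (blue) or also in TGF-β1 samples (orange), for lists of 20 or more annotated genes, with vertical lines at the shares of all protein-coding genes (1.69 and 1.51%). Ion channels and receptors have the longest blue bar, at 13.4%, and the bottom 3 lists have none.

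Of the lists of the cell type and of TGF-β1 targets, no gene carried such a region at its TSS. None of 12 mesangial and contractile markers, 40 TGF-β1 target genes, 31 Polycomb and H3K27 demethylase genes or 20 housekeeping genes had a Control-only region at the TSS, and none had a comparison region. At the share of all genes, fewer than 1 gene in each of these lists would have one, so the absence is no result. Among markers of other kidney cells, Epcam was the 1 of 10 tubule markers with a Control-only region, and Cdh1, another, had a comparison region. None of 6 endothelial or 5 leukocyte markers had either kind. Peak lists of a repressive mark do not measure expression, so they do not tell which cells were present. Of 39 annotated genes that the study lists as changed in these same samples, 5 had a Control-only region at the TSS: Npr1, the receptor of atrial natriuretic peptide, Whrn, a scaffold of hair cells, Tnxb, Wnt1 and Egr2, a zinc finger factor of myelination. They were chosen on these samples and are no independent evidence, and the count takes no account of the direction of change. At Tnxb the study reports more H3K27me3 after TGF-β1, the opposite of the calls here, and at Whrn, Wnt1 and Egr2 less. The reason for the difference at Tnxb was not tested. Npr1 had 682, 625 and 405 bp at chr3:90268998-90269723. Whrn had 622 and 997 bp in Control 1 and 3, with no call in Control 2, and Wnt1 had 1157 and 280 bp in Control 1 and 2, with no call in Control 3.

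Some regions lay in stretches where the number of tags was raised. On chromosome 9 the background implied by pileup and fold enrichment had a median of 87.1 to 144 tags per sample, while on every other chromosome it was at most 7.26. Chromosome 9 held 12 of the 632 regions, Celsr3 among them. Of all 632 regions, 96 (15.2%) held a peak with a pileup of at least 20, against 149 of 820 comparison regions (18.2%). They included those at Krt83, Tnxb, Wnt1, Cacna1h, Epcam and Fgf12. Without these regions, chosen after seeing the data, 536 regions and 323 genes remained and the differences in GC content, CpG ratio and TSS share were 3.48 percentage points, 0.156 and 18 percentage points. The part of these stretches in the single calls was not tested.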

How the data were processed

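H3K27me3 ChIP-seq peak lists of 3 Control and 3 TGF-β1 samples of mouse primary mesangial cells were analysed. According to the methods and the file headers, the authors aligned reads to mm9 with BWA, kept unique reads and called broad peaks with MACS 2.1.0.20150731. The lists used here hold calls per sample, without a control library, at q 0.01 (strong) and 0.1 (weak), with a local background of 10000 bp. For its own changed regions the study merged the 3 samples of each group before calling peaks, then compared read counts between groups. The deposited pileup is a coverage signal that is not scaled to depth, the deposited fold enrichment is a ratio to the local background, and the deposited significance columns are −log10 p and q values. Of the Control and TGF-β1 peaks, 60.8 to 71.0% per sample had a −log10 q under 1. The deposited q of most peaks was thus above the weak threshold of 0.1. The depth, 24753483 to 25635595 tags before removal of duplicates, limits what could be called, and the lists give no value elsewhere.

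Groups came from the treatment label. Peaks sharing at least 1 bp were merged across samples. Genes, TSSs and exons came from protein-coding genes of GENCODE M1 and sequence from the NCBIM37 genome, which is the same build as mm9, and 0 peaks ran past a chromosome end. A CpG ratio is the number of CpG times the length over the product of the numbers of C and G. Repeated sequence was measured as 31-base words found more than once in the placed genome. Older symbols were matched through RefSeq synonyms, for 5 genes of the developmental factor list and at most 2 of any other. Some items are not reported here. Within-sample differences were tested with the exact sign-flip test, and the code returned the planted answers on simulated peak lists. In those lists all or none of the TGF-β1 samples called a region and none was called in just 2 Control samples. They check the counting and not the contrasts in lists like the real ones. Python 3.11.15, numpy 2.4.6, pandas 2.3.3 and pysam 0.24.0 were used.

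The regions, gene lists and measures were chosen with earlier results of these data known. Named were the 10 TSS regions called in all 3 Control samples with the greatest mean length under peaks, the 5 longest away from a TSS, up to 4 per gene list, genes with the most regions, and the 2 nearest to a TGF-β1 peak. Alternatives were other q thresholds, equal list lengths, joined peaks, autosomes, all 3 Control samples, union regions as the unit, other TSS distances, gene bodies, same-numbered pairs and the removal of each sample.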

Additional observations from a re-analysis of the deposited data

How the results depend on the processing

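The differences in GC content, CpG ratio and share of peaks at a TSS kept their direction under every alternative that was run, 17 for each of the first pair and 19 for the last. They ranged from 2.60 to 10.5 percentage points, 0.052 to 0.219, and 8.79 to 29.9 percentage points. With each sample left out they ran from 3.59 to 4.84, 0.146 to 0.200 and 18.4 to 23.8. The counts depended on which peaks entered. The 632 regions became 150 with a −log10 q of at least 1, 54 with at least 5, 122 with equal list lengths and 156 when all 3 Control samples had to call, and ran from 260 to 808 with 1 sample left out. The 375 genes became 85, 29, 73 and 111 in the same order, and ran from 167 to 469. Without Control 1, 2 or 3 the regions numbered 288, 260 and 387, because both other Control samples then had to call. The log2 ratio of peak widths, −0.11, was −0.407 with a −log10 q of at least 5 and −0.320 with union regions as the unit, and ran from −0.194 to 0.044 with 1 sample left out, the positive value without Control 2. The difference of left-out shares, 36.1 percentage points, was 23 and 26.3 at a −log10 q of at least 1 and 5 and 21.1 with equal list lengths. It ran from 13.0 to 40.8 with 1 sample left out, from 13.0 to 16.9 without a Control sample, where 1 Control call alone chose the regions. The replicate numbers are shared by the groups, but no source says that they pair cultures. With only same-numbered samples left out together, as a replicate block, the difference was 35.3 percentage points. The causes were not tested.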

Other observations

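The reverse set, 71 regions with a call in at least 2 TGF-β1 samples but none in Control, differed from the Control-only regions in where it lay. Of its 69 placed regions 6 (8.70%) were within 2 kb of a TSS, and their median CpG ratio was 0.094 and median GC content 49.0%. The corresponding values of the 630 placed Control-only regions were 56.5%, 0.552 and 59.0%. The calls chose both sets, and the difference was not tested.

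The regions were spread unevenly over chromosomes. Chromosome 8 held 61 (0.463 per Mb) and chromosome 11 held 55 (0.451 per Mb), while chromosome 16 held 6 (0.061 per Mb), the X chromosome 11 (0.066 per Mb) and the Y chromosome 0. The comparison regions were uneven as well. Chromosome 8 held the most of them, 95, and chromosomes 11, 16, X and Y held 46, 20, 17 and 1. Protein-coding genes numbered 1082 on chromosome 8, 1653 on 11, 674 on 16 and 932 on X.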
